A study of Mus musculus with 8 samples.

Results

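The genes described here are the factors that build ribosomes, taken as every gene whose annotation in the deposited table lists the KEGG pathway "Ribosome biogenesis in eukaryotes". This annotation held for 77 of the 22063 genes in the table, and it uses no expression value, although the pathway was picked with results of the same comparison in view. The counts of members below therefore describe these libraries and are no test of the pathway. By step of assembly, 9 members code for proteins of small nucleolar ribonucleoproteins (snoRNPs), 27 for factors of the 90S pre-ribosome, 12 for 60S factors, 3 for late 40S factors, 9 for nuclear export and 15 for ribonucleases. The other 2, Rasl2-9 and 1700009N14Rik, fitted none of these steps. The steps were assigned by symbol from general knowledge of the pathway.

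RNA-seq was carried out on 8 libraries of WT mice on a high-fat and high-cholesterol (HFHC) diet, 4 of them labelled as controls and 4 as controls given tranilast, an anti-allergic drug. The comparison asks how the transcripts of these genes differed with tranilast. The diet is named in the series design and not in the sample labels, and the labels give no dose, age, sex or strain for the sequenced mice. They also do not say whether each library came from a separate mouse, so the p-values measure the spread between these libraries, which may be technical.

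Ribosomes are made in the nucleolus. RNA polymerase I transcribes a long precursor, snoRNPs guide its chemical modification, the 90S pre-ribosome folds and cleaves it, and the small (40S) and large (60S) subunits then mature apart and leave the nucleus with the exportin XPO1 and the GTPase RAN. The pathway is a large cost to growing cells, and in liver it is best known for its rise during regeneration, when hepatocytes divide.

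Library totals were between 14585153 and 15618787 counts in the control group and between 12053036 and 14679386 with tranilast, so that a count of 0 allows at most 3 counts, or 0.192 to 0.249 counts per 1000000 (CPM). The labelled tissue was not borne out by its markers. Of 9 hepatocyte markers, 4 were at 0 in all libraries, and the sum of the 9 was between 0 and 1.17 CPM in control and between 0 and 1.49 CPM in tranilast libraries. The sum of 14 macrophage markers was between 9544 and 10073 CPM in control and between 9287 and 9882 CPM in tranilast libraries, while the 3 Kupffer cell markers were at 0 throughout. Of the 14, 6 (Mertk, Marco, Mrc1, C1qa, C1qb and C1qc) had at most 11 counts in any library, and Lyz2, Csf1r and Cd14 gave most of the sum. Among the other 8, the TMM-scaled fit described below called Adgre1 and Cd68 higher and 6 lower, Fcgr1 most, at a log2 fold change of -1.42. The sum of 12 proliferation markers, Mki67 among them, was between 4630 and 4862 CPM in control and between 3119 and 3188 CPM in tranilast libraries. Relative to library totals, 8 of the 12 (Plk1, Ccnb1, Ccna2, Mki67, Bub1, Top2a, Aurkb and Cdk1) were lower in every tranilast library than in every control library, Pcna was higher in every one, and Mcm2, Mcm5 and Tyms overlapped. In the TMM-scaled fit 11 were called lower and Pcna, at 0.02, was not called. The part of these markers in the results below was not tested. In such bulk samples, fewer cells of a type and less RNA per cell cannot be told apart.

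Most ribosome factors that differed between the groups were lower with tranilast, by modest amounts. Of the 77 members, 72 had enough counts to be tested in edgeR's quasi-likelihood fit over 10770 genes, with Benjamini-Hochberg adjustment. A gene is called when its adjusted p-value is under 0.05. Lowered and raised describe the transcript of a called gene in tranilast relative to control libraries, and no protein was measured. With tranilast, 42 of the 72 members were lowered, which is 58.3%, beside 28.8% of all genes tested. Raised were 3 members, or 4.17%, beside 28.2% of all genes, and 57.0% of all genes were called in either direction. The median log2 fold change was -0.14 over the members and 0.01 over all genes. All 4 tranilast libraries lay below all 4 control libraries for 39 members, above them for 2 and overlapped with them for 31. Over all genes, the groups were separate in these ways for 25.2% and 24.5%. No member passed an absolute log2 fold change of 1, and the median change of the 42 lowered members was -0.23.

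The direction of the whole comparison depends on how libraries are scaled, and the numbers above use TMM scaling. All 4 control libraries had TMM factors between 0.957 and 0.965 and all 4 tranilast libraries between 1.037 and 1.045. Of all genes called, 49.5% were higher with tranilast under TMM, 62.6% under upper-quartile factors, 70.9% under library size alone and 70.5% on the deposited FPKM values with 1 added, tested by limma trend, where FPKM is a read density scaled for transcript length and depth. The median of all genes moved to 0.08, 0.12 and 0.10 with the last 3 scalings. The members then counted 31 lower and 6 higher (43.1% and 8.33%), 25 lower and 12 higher (34.7% and 16.7%), and 19 lower and 7 higher (26.4% and 9.72%). Over all genes tested, the shares called lower and higher were 21.6% and 36.0%, 17.6% and 42.8%, and 15.4% and 36.8% in the same order. Relative to the median of all genes, the members' median was -0.15 under each of these 4 scalings. Among the count scalings this agreement was fixed in advance, since a change of factors shifts every gene by nearly the same amount. It is therefore no check on the calls. In raw shares, the members took between 0.820% and 0.828% of all counts in control libraries and between 0.748% and 0.754% in tranilast libraries, without overlap. Such a share scales by library size alone, where 25 members were lower and 12 higher, and the members with the most counts weigh most in it.

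**Figure D1:**
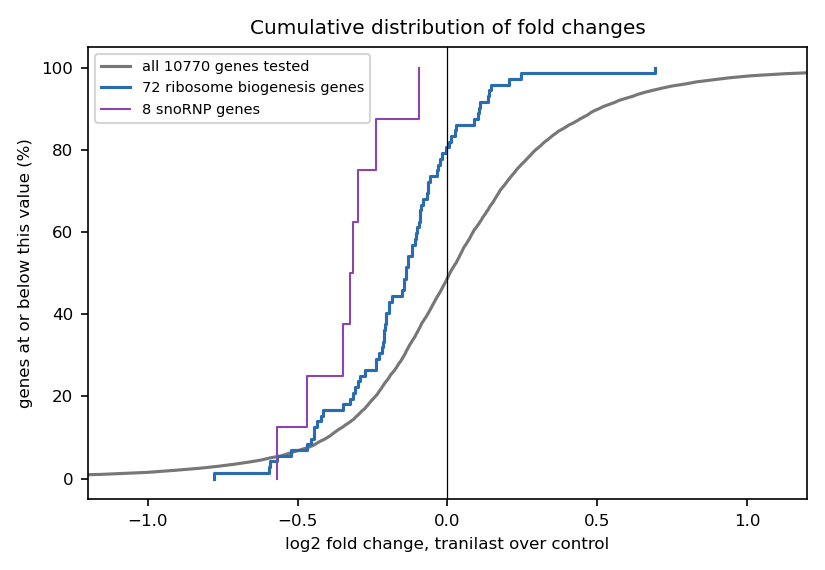
The x axis is the log2 fold change of tranilast over control in the TMM-scaled edgeR fit and the y axis the percentage of genes at or below that value, for all 10770 genes tested, the 72 tested ribosome factors and the 8 tested snoRNP genes. The curve of the ribosome factors lies left of that of all genes over most of the range and crosses 50% at -0.14, while the snoRNP curve lies wholly below 0; under library size alone and on FPKM values 1 snoRNP gene, Nop10, lies above 0.

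Promoter sequences were available in RefSeq for 64 of the 77 members, as windows of GRCm38.p6 from 250 bases before to 50 bases after each gene's start. They are shown as a description of the members, and a part of these sequences in the changes was not tested. Stretches of 60 bases are printed 5′ to 3′ on the strand of the gene, with capitals marking the motif. The first 3 hold CACGTG, the E-box letters that MYC-family factors recognise, and the last 3 hold CCGGAAGT or its reverse complement ACTTCCGG, letters of the ETS family. For each motif they are the 3 lowered members with the lowest log2 fold change among those with a match at least 10 bases before the start.
Ran, chr5:129020011-129020070, plus strand: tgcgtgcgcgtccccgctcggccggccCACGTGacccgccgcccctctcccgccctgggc
Imp4, chr1:34439681-34439740, plus strand: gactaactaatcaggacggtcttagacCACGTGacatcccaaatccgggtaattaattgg
Rrp7a, chr15:83122977-83123036, minus strand: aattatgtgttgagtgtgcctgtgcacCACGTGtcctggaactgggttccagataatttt
Gar1, chr3:129831408-129831467, minus strand: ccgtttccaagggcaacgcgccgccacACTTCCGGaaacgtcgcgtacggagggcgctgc
Utp4, chr8:106893580-106893639, plus strand: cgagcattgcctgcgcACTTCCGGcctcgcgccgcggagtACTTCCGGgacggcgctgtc
Emg1, chr6:124712190-124712249, minus strand: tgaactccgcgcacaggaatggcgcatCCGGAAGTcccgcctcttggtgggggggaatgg

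Both strands were searched over 68 windows of 60 tested members. The E-box letters were in 12 of these windows, or 17.7%, beside 10.2% of the 10999 windows of tested genes and 7.15% of all 32851 windows. The ETS letters were in 16 windows, or 23.5%, beside 8.98% and 3.89%. Some windows of the same gene overlap, so windows are not separate units. By gene, the ETS letters were at 14 of 60 tested members and 896 of 8613 tested genes, and the E-box letters at 12 and 1049. A further motif, the NRF1 palindrome made of GCGC, AT and GCGC without gaps, was in 1 window, or 1.47%, beside 2.27% and 0.971%. In the 40 windows of members called lower, the E-box, ETS and NRF1 shares were 20%, 25% and 2.5%. Both the E-box and the ETS letters were found at Utp4 and Xrn2. The letters of one motif do not contain those of another, and a match describes the sequence and is not a measured site.

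The genes for snoRNP proteins had the lowest median log2 fold change of the 6 steps. These proteins carry the guide RNAs of the nucleolus: box C/D particles methylate the ribosomal RNA precursor and box H/ACA particles convert its uridines to pseudouridine. All 4 tested genes of the box C/D core and 3 of the 4 of the box H/ACA core were lowered, with a median log2 fold change of -0.32 over the 8 genes tested. The same number, 7 of 8, was called lower under TMM, RLE, upper-quartile, library-size and FPKM scaling. It is 87.5% of the step, beside 28.8% of all genes tested under TMM. Fbl, Nop56, Nop58, Snu13, Nhp2 and Dkc1 averaged at least 50 FPKM, and 64.2% of all genes that abundant were called lower. Summed over the step, the transcripts were at 1400 to 1447 CPM in control and 1128 to 1157 CPM in tranilast libraries, without overlap.

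Fbl (ENSMUSG00000046865, chr7:28169710-28179269) codes for fibrillarin, the methyltransferase of the box C/D particle. Its levels were 194, 196, 218 and 203 CPM in the control libraries and 162, 163, 161 and 153 CPM with tranilast. Every tranilast library was below every control library, and the log2 fold change was -0.35 (SE 0.039, edgeR adjusted p = 5.44e-07). Nop58 and Nop56 code for the paired scaffold proteins around which fibrillarin sits. Nop58 was at 283, 284, 269.9 and 286 CPM in control and at 222, 228, 226 and 227 CPM in tranilast libraries, a log2 fold change of -0.31. Nop56 was at 318, 319, 315 and 335 CPM in control and at 273, 276, 273 and 268 CPM in tranilast libraries, a log2 fold change of -0.24. Neither gene's groups overlapped. Snu13, whose protein binds the kink-turn of the guide RNA, was at 209.5 ± 6.35 CPM in control and 167 ± 5.12 CPM with tranilast (SD, n = 4), a log2 fold change of -0.33. The paralog of fibrillarin, Fbll1, had 1 count in each of 2 libraries and was not tested.

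Dkc1 (ENSMUSG00000031403, chrX:75095854-75109777) codes for dyskerin, the pseudouridine synthase of the box H/ACA particle. It was at 203, 210.1, 207 and 212 CPM in control and at 148, 148, 157 and 149 CPM with tranilast. The groups were far apart, with a log2 fold change of -0.47 (SE 0.033, edgeR adjusted p = 1.17e-09). Gar1, which helps load and release the RNA substrate, had the lowest log2 fold change of the step and also the widest spread. Its levels were 28.4, 36.0, 32.9 and 27.3 CPM in control and 17.2, 17.7, 23.2 and 25.8 CPM with tranilast. The highest tranilast library stood just under the lowest control library, and the log2 fold change was -0.57 (SE 0.12, edgeR adjusted p = 0.000425). Nhp2, another core protein, was at 144 ± 4.69 CPM in control and 117 ± 4.18 CPM with tranilast (SD, n = 4), a log2 fold change of -0.30. Nop10, the smallest protein of the core, was at 30.9 to 43.7 CPM in control and 30.7 to 37.0 CPM with tranilast. Its groups overlapped, and its log2 fold change of -0.10, with a 95% interval from -0.27 to 0.08, was not called and changed sign under library size and on FPKM values.

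**Figure D2:**
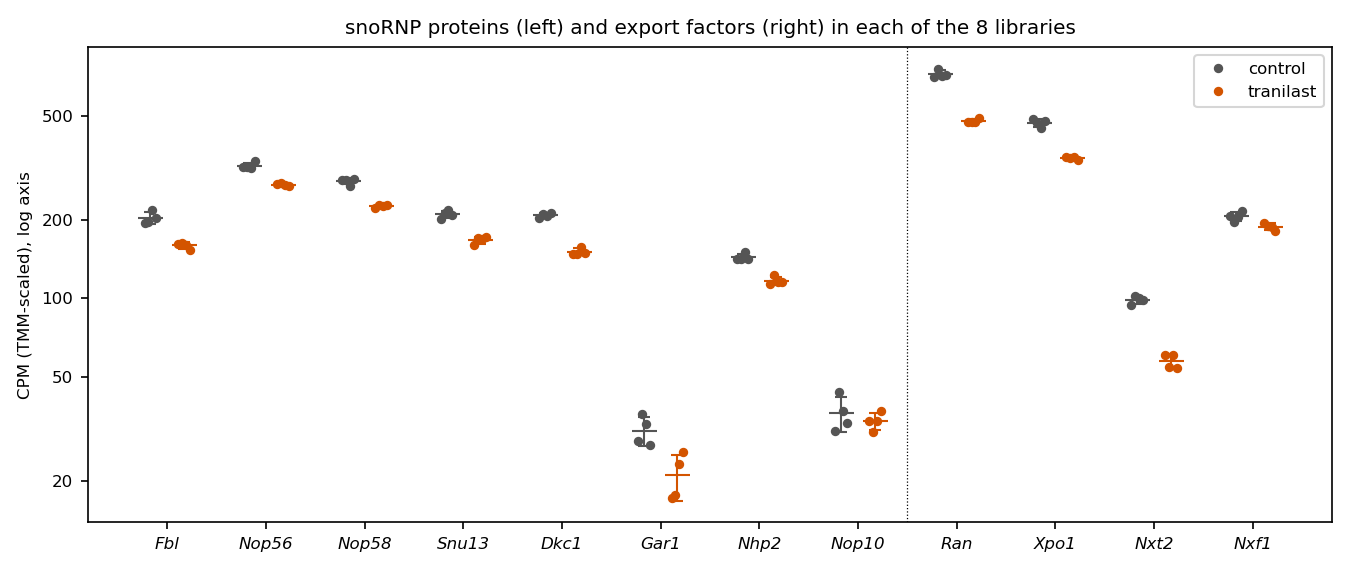
The y axis is CPM with TMM scaling on a log axis, for 8 snoRNP genes and 4 export genes on the x axis; points are single libraries, and the wide mark with its bar is the mean ± SD of 4 libraries. All genes but Nop10 show the 4 tranilast libraries below the 4 control libraries; Gar1 has the widest spread among these, from 17.2 to 25.8 CPM with tranilast.

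The 90S pre-ribosome, also called the small subunit processome, is the first large particle on the RNA precursor. Of its 27 factors, 19 were lowered and 2 raised, with a median log2 fold change of -0.19. These are 70.4% and 7.41%, beside 28.8% and 28.2% of all genes tested. Counted by complex, the lowered genes were 4 of 5 members of UtpA, the complex that binds the precursor first, and all 6 of UtpB, which follows. They also included 2 of 3 members of the Mpp10 complex, 3 of 5 of UtpC with casein kinase 2, and 4 of the 8 remaining factors. The calls of the step were 14 lower and 2 higher under upper-quartile factors, 10 and 5 under library size, and 6 and 3 on FPKM values.

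Tcof1 (ENSMUSG00000024613, chr18:60813755-60848971) codes for treacle, a nucleolar protein that links transcription of the precursor to its modification and whose loss causes a craniofacial syndrome. Its levels were 375, 366, 384 and 348 CPM in control and 255, 238, 251 and 232 CPM with tranilast. No tranilast library came near a control library, and the log2 fold change was -0.59 (SE 0.036, edgeR adjusted p = 1.56e-10). Wdr43, of UtpA, was at 231, 236, 232 and 229 CPM in control and at 162, 166, 159 and 159 CPM with tranilast. Its groups were as clearly apart, with a log2 fold change of -0.52 (SE 0.031, edgeR adjusted p = 8.12e-11). Utp4, also of UtpA, had a log2 fold change of -0.44 (SE 0.039), from between 108.5 and 115.4 CPM in control to between 80.2 and 85.7 CPM with tranilast. Emg1, a methyltransferase of the small subunit RNA, had a log2 fold change of -0.42 (SE 0.039), from 116 ± 2.98 to 86.5 ± 2.82 CPM (SD, n = 4). Utp4 and Emg1 did not overlap between groups either.

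The changes in the rest of the particle were smaller. A further 14 factors were lowered, with log2 fold changes from -0.31 for Wdr36 to -0.12 for Wdr75. Utp6 of UtpB was the lowered factor nearest to 0, at -0.10 (edgeR adjusted p = 0.0181), and it was above 0 under library size and on FPKM values. Tbl3, another UtpB protein, had a log2 fold change of -0.15 and was above 0 on FPKM values. Imp3 and Rcl1 rose. Imp3, which pairs the U3 snoRNA with the precursor, was at 57.1, 52.7, 55.5 and 56.5 CPM in control and 65.4, 66.9, 67.0 and 63.7 CPM with tranilast. All 4 tranilast libraries were above the control libraries, with a log2 fold change of 0.25 (SE 0.045, edgeR adjusted p = 0.000156), whereas its partners Imp4 and Mphosph10 were lowered, at -0.22 and -0.21. Rcl1, a factor of an early cleavage, rose by 0.14 with overlapping groups (edgeR adjusted p = 0.0367). Without single libraries the adjusted p of Rcl1 was between 0.0625 and 0.108 in 5 fits, that of Utp14a between 0.0547 and 0.164 in 5 and that of Csnk2a2 between 0.0584 and 0.0916 in 4. Utp6 was at 0.0728 without tranilast replicate 3, and Wdr75 at 0.0576 without tranilast replicate 4. The 5 Rcl1 fits were those without control replicate 3 or 4 or tranilast replicate 1, 2 or 4. For Utp14a they left out control replicate 1 or 2 or tranilast replicate 1, 2 or 3, and for Csnk2a2 control replicate 2 or 4 or tranilast replicate 2 or 4.

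**Figure D3:**
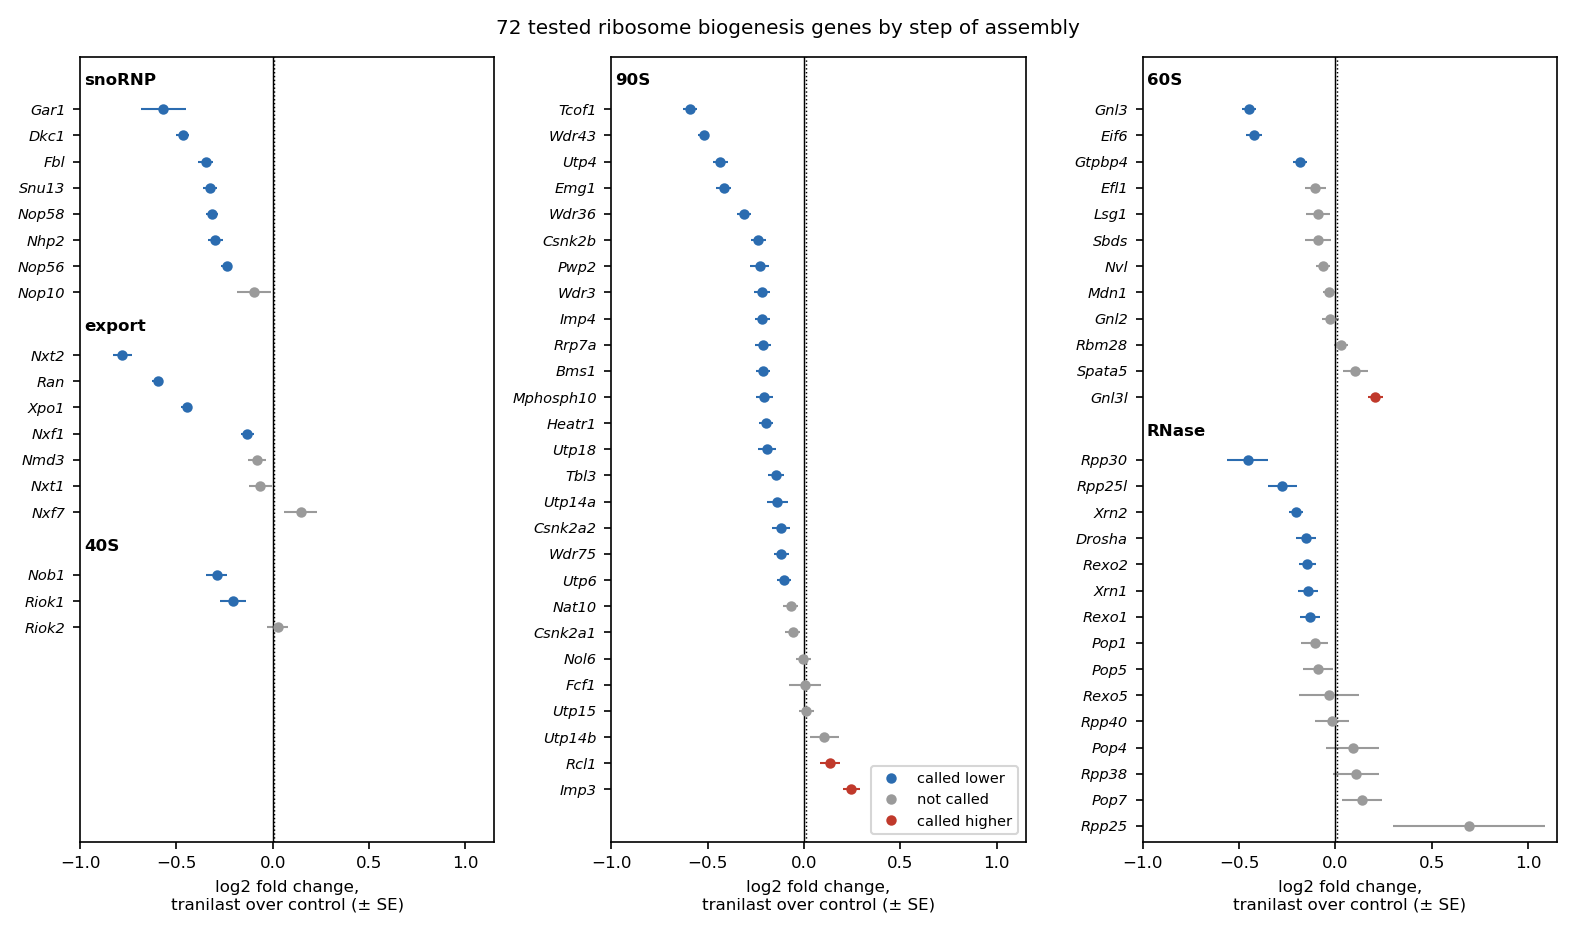
The x axis is the log2 fold change of tranilast over control in the TMM-scaled edgeR fit with its standard error, and each line of the y axis is a gene, grouped by step; blue marks genes called lower, red genes called higher and grey genes not called, and the dotted line is the median of all genes, 0.01. Points lie mostly left of 0 in the snoRNP and 90S steps and on both sides in the 60S and RNase steps, whose medians turn positive under library size and on FPKM values.

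The large-subunit factors had the median nearest to 0 of the 6 steps under TMM. Of 12 members, 3 were lowered, a share near the 28.8% of all genes tested, and 1 was raised. The balance of calls was 3 lower and 3 higher under upper-quartile factors, 2 and 4 under library size, and 2 and 3 on FPKM values. The median log2 fold change of -0.08 turned to 0.04 under library size and on FPKM values. Gnl3, or nucleostemin, is a nucleolar GTPase abundant in dividing and stem cells. It was at 166, 165, 172 and 165 CPM in control and at 119, 121, 121 and 129 CPM with tranilast. The groups were well apart, with a log2 fold change of -0.45 (SE 0.036, edgeR adjusted p = 5.87e-09). Eif6 keeps a new 60S subunit from joining a 40S subunit too early. It was at 117, 120.1, 129 and 124 CPM in control and at 93.0, 93.5, 93.6 and 86.0 CPM with tranilast, without overlap, and its log2 fold change was -0.42 (SE 0.043, edgeR adjusted p = 1.31e-07). Sbds and Efl1 act together to release Eif6 from the subunit. Sbds was at 36.4 ± 3.49 CPM in control and 34.2 ± 0.902 CPM with tranilast (SD, n = 4). Its log2 fold change of -0.09, with a 95% interval from -0.22 to 0.04, was not called and was above 0 under library size and on FPKM values. Efl1 was at -0.10 and was not called, although its groups did not overlap.

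Gtpbp4, a GTPase of early 60S particles, was lowered with a log2 fold change of -0.18, from 157 ± 6.80 to 138 ± 3.05 CPM (SD, n = 4). Gnl3l, the close relative of nucleostemin, moved the other way. It was at 87.6, 86.8, 87.7 and 81.1 CPM in control and at 100.7, 99.4, 98.4 and 97.5 CPM with tranilast, all higher than in control, with a log2 fold change of 0.21 (SE 0.040, edgeR adjusted p = 0.000231). The remaining 6 members, among them the giant remodelling ATPase Mdn1 and the ATPase Nvl, were not called, with log2 fold changes between -0.09 and 0.10.

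The annotated pathway holds only 3 late factors of the small subunit, which act mainly in the cytoplasm. Nob1, the endonuclease that makes the final cut of the 18S RNA, was at 56.3, 56.5, 54.9 and 52.5 CPM in control and at 40.4, 45.6, 46.8 and 47.2 CPM with tranilast. It was lower in all 4 tranilast libraries, with a log2 fold change of -0.29 (SE 0.055, edgeR adjusted p = 0.000201). The kinase Riok1 had a log2 fold change of -0.21 (edgeR adjusted p = 0.0138), which gave adjusted p-values of 0.0511 without tranilast replicate 2 and 0.0591 without tranilast replicate 4. Its relative Riok2 was at 0.03 and was not called. Neither Nob1 nor Riok1 was called on FPKM values.

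Export factors held the lowest log2 fold changes of the pathway. Nxt2 (ENSMUSG00000042271, chrX:142226770-142239692), a cofactor of the mRNA export receptor, was at 94.5, 102, 99.9 and 98.1 CPM in control and at 60.7, 54.6, 60.7 and 54.3 CPM with tranilast. Its log2 fold change was -0.78 (SE 0.048, edgeR adjusted p = 1.83e-10), a level lower by more than the whole spread of either group. Ran (ENSMUSG00000029430, chr5:129020069-129024323), the GTPase that gives nuclear transport its direction and whose promoter stretch with an E-box is printed above, was at 703, 758, 707 and 717 CPM in control. With tranilast it was at 474, 473, 472 and 488 CPM, and the log2 fold change was -0.60 (SE 0.027, edgeR adjusted p = 2.93e-12). Xpo1, the exportin that carries both subunits out of the nucleus, was at 486, 467, 448 and 479 CPM in control and at 347, 344, 348 and 339 CPM with tranilast. The log2 fold change was -0.45 (SE 0.029, edgeR adjusted p = 3.33e-10), and no library of either gene crossed between groups.

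The adaptor of XPO1 on the 60S subunit, Nmd3, was nearer to 0. It was at 69.1 ± 3.93 CPM in control and 65.2 ± 1.67 CPM with tranilast (SD, n = 4), and its log2 fold change of -0.08, with a 95% interval from -0.18 to 0.01, was not called and was above 0 under library size. Nxf1, the main mRNA export receptor, was lowered slightly, by -0.13 (edgeR adjusted p = 0.00451). Its partner Nxt1 was at -0.06 and its relative Nxf7 at 0.14, and neither was called under TMM. Of the 7 tested export members, 4 were lowered and 0 raised, or 57.1% lowered beside 28.8% of all genes tested. Under upper-quartile factors, library size and on FPKM values, 3 were lower and 1, Nxf7, was higher. Nxf1 lost its call in these settings, with a log2 fold change as near to 0 as -0.015. Nxf2 and Nxf3 were at 0 counts in all 8 libraries. So were the counts of 1700009N14Rik, while those of Rasl2-9, a Ran-like gene, were between 0 and 8. Reads that copies of Ran share with it could not be told apart, and these low counts bound them only as far as the authors' counting assigned such reads. The step's sum went from between 1590 and 1648 CPM to between 1186 and 1199 CPM. It fell by 26.6% in the mean under TMM, and Ran and Xpo1 carried most of these counts.

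The ribonucleases trim the precursor or cut it, and most of them also work on other RNAs. Of 15 members, 7 were lowered and 0 raised at an adjusted p under 0.05, or 46.7% lowered beside 28.8% of all genes tested. The lowered members were 3 under upper-quartile factors, 2 under library size, with 1 raised, and 1 on FPKM values. The median log2 fold change of -0.11 turned to 0.01 under library size and on FPKM values. Within RNase MRP and RNase P, which share most of their proteins, 2 of 9 were lowered, or 22.2%, which is under the share of all genes. Rpp30 was at 19.2, 19.6, 18 and 22.6 CPM in control and at 16, 13.5, 16.4 and 12.1 CPM with tranilast, without overlap, with a log2 fold change of -0.46 (SE 0.10, edgeR adjusted p = 0.00122). Rpp25l was at -0.28, whereas its relative Rpp25 was at 0.69 with a standard error of 0.39 at under 2 CPM and was not called.

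Among the 6 other nucleases, 5 were lowered, by small amounts. Xrn2, the nuclear exonuclease that trims 5′ ends, had a log2 fold change of -0.20 (SE 0.038, edgeR adjusted p = 0.000166). Rexo2 and Drosha were both at -0.15, Xrn1 at -0.14 and Rexo1 at -0.13, the last being above 0 on FPKM values. The groups of Drosha, Xrn1 and Rexo1 overlapped, and their calls were lost without single libraries. Drosha was at an adjusted p of 0.0571 without tranilast replicate 1 and 0.0823 without tranilast replicate 4. Xrn1 was between 0.0530 and 0.120 without control replicate 1 or 2 or tranilast replicate 2, 3 or 4. Rexo1 was between 0.0695 and 0.163 without control replicate 1, 3 or 4 or tranilast replicate 1, 3 or 4.

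**Figure D4:**
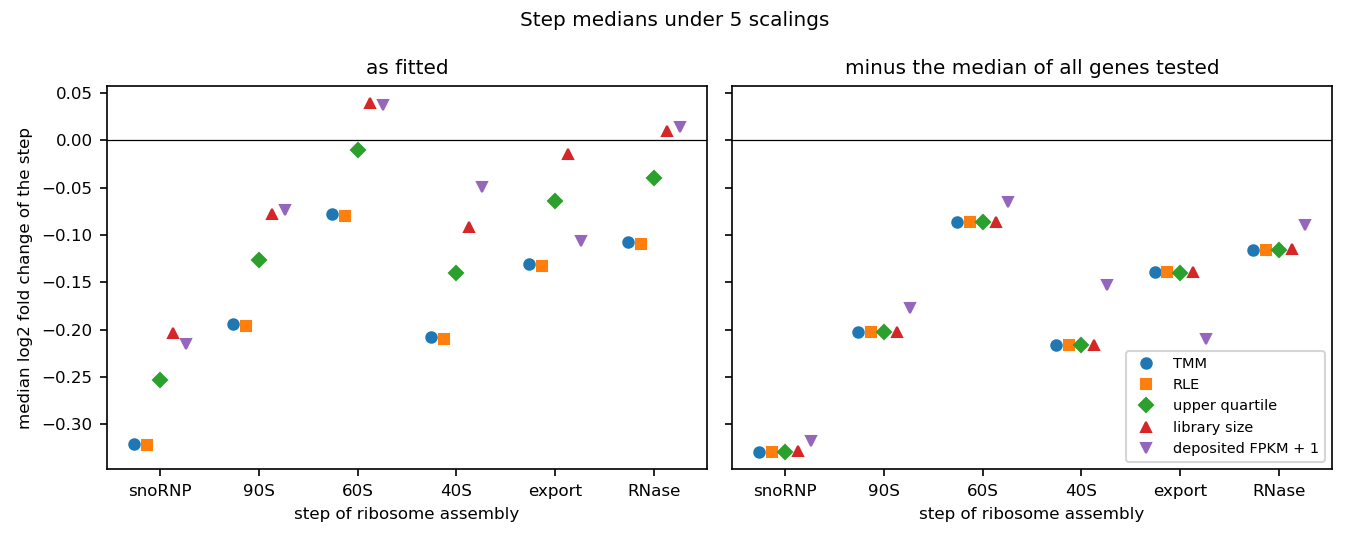
The y axis is the median log2 fold change of each step on the x axis, with colours and shapes for 5 scalings; the left panel shows the values as fitted and the right panel subtracts the median of all genes tested under the same scaling. As fitted, the 60S and RNase medians lie below 0 under TMM, RLE and upper-quartile factors and above 0 under library size and on FPKM values, while in the right panel every step lies below 0 and the snoRNP step is lowest, at -0.33 under TMM. The count scalings had to agree in the right panel, since they differ by nearly the same shift for every gene.

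Members with more abundant transcripts tended to have lower log2 fold changes. Per length, Ran was the most abundant member, at 291 FPKM in control, followed by Nop58 at 223, Nop56 at 199.6, Fbl at 163 and Nhp2 at 132 FPKM. Of the 19 tested members with a mean of at least 50 FPKM over the 8 libraries, 18 were lowered and 1, Imp3, was raised. Genes that abundant were also called lower more often in the table at large, at 64.2% of 1640 genes against 22.5% of the 9130 genes under that level. Below 50 FPKM, 24 of 53 members were lowered, or 45.3%, and 2 were raised. The members' median log2 fold change was -0.33 at or above the level and -0.10 under it, beside -0.16 and 0.05 for all genes in the same ranges. Across genes, Spearman's rho between mean FPKM and log2 fold change was -0.57 over the 72 members and -0.34 over all genes tested. These points share the libraries and the scaling, and genes are not independent replicates.

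**Figure D5:**
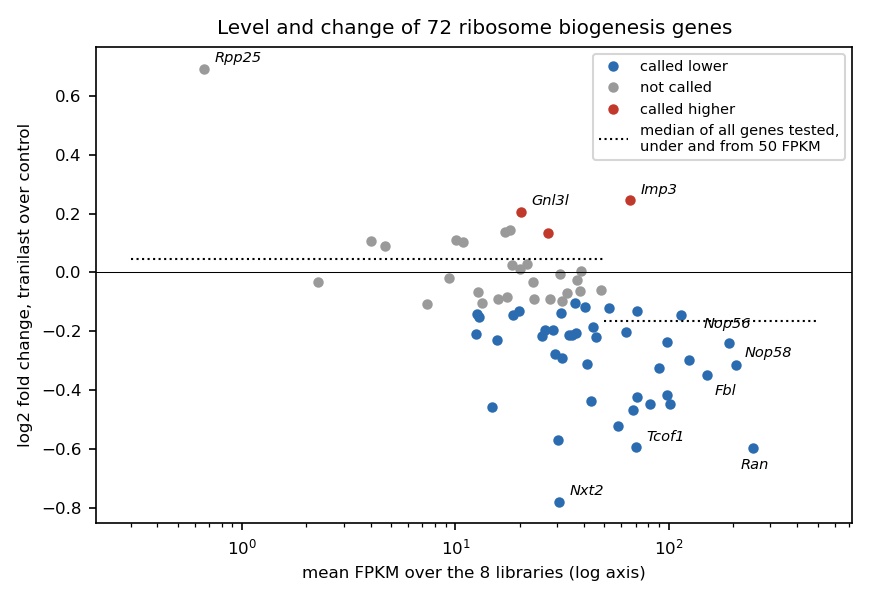
The x axis is the mean FPKM over the 8 libraries on a log axis and the y axis the log2 fold change of tranilast over control in the TMM-scaled fit, for 72 ribosome factors coloured by call; dotted lines give the median of all genes tested under and from 50 FPKM, 0.05 and -0.16. Of the 19 members from 50 FPKM upwards, 18 are called lower and Imp3 is the exception; Utp6, Tbl3 and Rexo1, which are called lower, change sign on FPKM values.

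The members lie on 20 chromosomes and are annotated for little else, since 58 of the 77 are in no other pathway of the table. Gene ontology terms of the table name the nucleolus for 79.2% of the tested members and for 7.09% of all genes tested. Nop56, Nop58, Dkc1, Wdr43 and Gnl3 hold snoRNA genes inside the gene on the same strand, which makes 5 of 72 tested members, or 6.94%, beside 1.85% of 10753 tested genes with a known position. All 5 were lowered, beside 28.8% of all genes tested. Each of the 5 averaged at least 50 FPKM, where 64.2% of all genes tested were called lower. The share lowered among all genes that hold a snoRNA was not computed. A protein-coding gene overlaps 19 of the tested members, and the sources used here do not say whether the counting used strand. Among the 53 that overlap none, 30 were lowered and 3 raised, with a median log2 fold change of -0.13. Over all 72 tested members, 42 were lowered and 3 raised, with a median of -0.14. The shares over all genes tested were 28.8% and 28.2%, and those over all genes that overlap none were not computed. A part of overlap in these calls was not tested.

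Ribosome factors that the annotated pathway leaves out were read from 3 lists, whose genes were likewise picked with earlier results known, and 28.8% of all genes tested were called lower and 28.2% higher. Of 15 genes for RNA polymerase I and its factors, 8 were lowered and 1 raised, and the median log2 fold change of -0.11 turned to 0.01 under library size and on FPKM values. Polr1b, the second largest subunit of the polymerase, was at 65.5, 67.9, 65.1 and 70.4 CPM in control and at 43.7, 42.9, 54.0 and 44.7 CPM with tranilast, a log2 fold change of -0.54 (SE 0.063, edgeR adjusted p = 8.62e-07). Taf1d of its promoter factor was at -0.43, and Taf1c of the same factor rose by 0.32 (edgeR adjusted p = 0.0139, and 0.0552 without tranilast replicate 1). The list held 4 lower and 3 higher calls under library size and 4 and 1 on FPKM values. Of 39 further large-subunit factors, 30 were lowered and 2 raised, with a median of -0.23, beside 3 lowered and 1 raised of the 12 large-subunit members above. The difference between these 2 lists was not tested. Under library size 20 of the 39 were lower and 5 higher, and on FPKM values 20 and 4. Pa2g4, a 60S-bound protein, led them at -0.45, then Rrp1b at -0.42, and the helicase Ddx54 rose by 0.11 (edgeR adjusted p = 0.0161, and 0.0523 without tranilast replicate 2). Of 35 further small-subunit factors, 20 were lowered and 2 raised, with a median of -0.15. These calls were 12 and 5 under library size and 6 and 3 on FPKM values. Among them Ncl, or nucleolin, was at 2462, 2459, 2423 and 2398 CPM in control and at 1616, 1614, 1698 and 1620.2 CPM with tranilast, a log2 fold change of -0.57 (SE 0.021, edgeR adjusted p = 1.12e-13). The helicase Ddx47 was at -0.40, and Rrp36 rose by 0.25 (edgeR adjusted p = 0.0110).

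Of the 42 lowered members, 19 were also called lower under all 18 alternatives of scaling, tool, unit, filter, replicate block and left-out library. They comprised 7 snoRNP genes, Nxt2, Ran and Xpo1 of the export step, Tcof1, Wdr43, Utp4, Emg1, Wdr36 and Csnk2b of the 90S step, Gnl3 and Eif6 of the 60S step and Rpp30. Imp3 and Gnl3l were called higher in all 18. How many of all genes tested kept their call in all 18 was not counted, so these numbers have no background. On log2 FPKM plus 1 alone, 26.4% of the members and 15.4% of all genes tested were called lower.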

How the data were processed

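RNA-seq was analysed for 8 libraries, 4 control and 4 tranilast, grouped by the treatment in the sample labels. For every gene the authors deposited estimated counts, of which 92.7% to 93.9% per library were whole and the others were rounded here, and FPKM values, scaled by the authors for the length of transcripts and the depth of libraries. Which aligner, counter and genome build were used is not given in the sources used here. Other columns of the table hold annotation only, and 0 columns of values per library were left unused. RefSeq promoter windows are of GRCm38.p6 and gene positions, counted from 1, of the GENCODE M21 annotation of GRCm38, where all 77 members were found by identifier.

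Genes were filtered with filterByExpr by group, scaled by TMM and tested by the quasi-likelihood method of edgeR 4.0.16 with no covariate, and p-values were adjusted over 10770 genes by Benjamini and Hochberg's method. Standard errors were computed from the log2 fold change and the F statistic of the edgeR fit. The 95% intervals use a normal distribution and are therefore somewhat narrow for 4 libraries per group. CPM values are scaled by TMM except for the marker lists, which were divided by library totals. The members and the lists were chosen with earlier results of these data known. Named genes were every core snoRNP protein, Xpo1, Ran, Nmd3, Eif6 and Sbds, and in each step the 4 called members with the lowest and the 3 with the highest log2 fold change among those with a mean count of at least 50, and in each list outside the pathway the 2 lowest and the 1 highest. Other members are named where a small count is spelled out, and were then chosen with their values seen. Alternatives were RLE, upper-quartile and library-size factors, DESeq2 1.42.0, limma-voom and limma trend on log2 FPKM plus 1 or 0.1 (limma 3.58.1), no expression filter, a minimum of 10 counts per library, the replicate number as a block, and each library left out in turn. R 4.3.3, Python 3.11.15, pandas 2.3.3, numpy 2.4.6 and scipy 1.17.1 were used. The code was tested on simulated counts. The limits from a count of 0 cover counting error only.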

Additional observations from a re-analysis of the deposited data

Results flagged for a closer look

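In the 86 groups of 4 libraries formed by the 43 named genes, 9 held a library whose distance to the nearest other relative to the group's range in log2 CPM exceeded Dixon's 95% critical value, where chance gives about 1 in 20. Nucleostemin, Gnl3, was at 7.42 in control replicate 3 against 7.37 in each of the others, and at 7.01 in tranilast replicate 4 against 6.90 to 6.92. Eif6 was at 6.43 in tranilast replicate 4 against 6.54 to 6.55, and Ran at 8.93 in the same library against 8.88 to 8.89. Gnl3l was at 6.34 in control replicate 4 against 6.44 to 6.45. Drosha was at 5.88 and Nhp2 at 7.23 in control replicate 3, against 5.95 to 5.97 and 7.14 to 7.15. In tranilast replicate 3, Dkc1 was at 7.30 against 7.21 to 7.22, and Ncl at 10.73 against 10.66. Of these values, that of Drosha lay within the range of the other group.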

How the results depend on the processing

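The results moved most under library size alone and on FPKM values, the latter changing unit, length model and tool together. Genes called lower over the whole table numbered 1894 under library size alone, 1660 on log2 FPKM plus 1 and 1663 on log2 FPKM plus 0.1, against 3104, and those called higher 4610 under library size against 3039. The members called lower were 25, 19 and 19 in these 3 settings against 42, and those called higher 12, 7 and 7, and 6 under upper-quartile factors, against 3. The members' median log2 fold change was -0.023, -0.046 and -0.048, and -0.072 under upper-quartile factors. In the order library size, FPKM plus 1 and FPKM plus 0.1, the medians turned positive for the 60S step (0.039, 0.038 and 0.040), the ribonucleases (0.0093, 0.014 and 0.014) and the polymerase I list (0.011, 0.012 and 0.012), as did Sbds (0.026, 0.010 and 0.011), Utp6 (0.013, 0.024 and 0.024) and Nop10 (0.020, 0.027 and 0.028). Rexo1 did so on FPKM plus 1 and plus 0.1 (0.014 in both), Nmd3 under library size (0.034) and Nop10 without control replicate 2, its values being between -0.16 and 0.0060 with single libraries left out. The cause was not tested. With single libraries left out, between 36 and 41 members were called lower and 2 to 3 higher, with a median between -0.15 and -0.13, and 9 members lost their call in at least 1 of 8 fits. Of the alternatives for named genes, 701 kept direction and call, 60 lost the call and 13 changed sign.

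No pairing of the libraries by replicate number was seen. The correlations of same-numbered deviations were -0.056, -0.032, 0.0040 and 0.096, and 1 of 8 libraries correlated best with its own number. A weak pairing could be missed in this way. With the replicate number as a block, 41 members were called lower and 3 higher among 6009 calls in all, against 6143. At 12053036 to 15618787 counts per library, members under the filter, such as Rasl2-9 with at most 8 counts, could not be compared.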
